A study of Homo sapiens with 6 samples.

Results

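The neutrophil-attracting chemokines CXCL1, CXCL2, CXCL3, CXCL5, CXCL6 and CXCL8 (also called interleukin-8) were examined, 6 of the 19775 genes that the arrays named. They were taken by name, with every probe set whose gene entry in the platform annotation includes a member, which gave 11 of 54613 probe sets, none of them shared with another gene. RNA came from MDA-MB-436, a human breast cancer cell line of the triple-negative kind, on 3 arrays labelled NF1-C2S transfected and 3 labelled wild type. The transfected cells carried an NF1-C2 expression plasmid after a stable transfection, and the label of their condition writes the construct as NF-C2. NF1-C2 derives from NFIC, the gene of a nuclear factor I protein that binds DNA and regulates transcription. Whether the cells were 1 clone or a pool is not stated in those labels, which also name no cells with an empty plasmid. All cells were grown in RPMI-1640 medium with 10% serum, an antibiotic supplement and 5 µg/ml insulin. The question put to the arrays is how gene expression differs in cells that overexpress NF1-C2.

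These chemokines are small secreted proteins that carry a glutamate-leucine-arginine motif, called ELR, just before the CXC cysteine pair that names the family. Through the receptors CXCR1 and CXCR2 they draw neutrophils out of the blood and also act on endothelial cells. Their genes lie close together on chromosome 4 and are textbook targets of NF-kappaB, the transcription factor switched on by interleukin-1 and tumour necrosis factor, and many breast tumour lines with mesenchymal features secrete CXCL8.

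The promoters show what the genes share and how closely they are related. The stretches that follow run from 140 to 41 bases before the annotated gene start in RefSeq's GRCh38.p14 sequence, written on the strand of the gene. Capitals mark the NF-kappaB letters GGAANTTCC, and in CXCL8 also the AP-1 letters TGANTCA. They were chosen because this stretch held the NF-kappaB match of all 6 genes.
CXCL1: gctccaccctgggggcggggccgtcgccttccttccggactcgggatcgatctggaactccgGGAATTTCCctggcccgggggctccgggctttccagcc
CXCL2: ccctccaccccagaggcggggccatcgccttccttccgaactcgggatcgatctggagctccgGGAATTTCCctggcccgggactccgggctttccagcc
CXCL3: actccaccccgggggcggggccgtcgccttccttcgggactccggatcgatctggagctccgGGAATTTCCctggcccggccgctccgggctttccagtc
CXCL5: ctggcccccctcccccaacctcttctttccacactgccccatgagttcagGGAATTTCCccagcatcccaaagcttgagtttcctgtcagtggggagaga
CXCL6: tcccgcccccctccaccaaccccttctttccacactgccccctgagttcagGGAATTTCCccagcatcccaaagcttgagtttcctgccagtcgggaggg
CXCL8: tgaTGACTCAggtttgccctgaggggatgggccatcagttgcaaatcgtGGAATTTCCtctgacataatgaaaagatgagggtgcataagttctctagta
They lie at chr4:73869253-73869352 on the plus strand for CXCL1, chr4:74099236-74099335 on the minus strand for CXCL2, chr4:74038730-74038829 on the minus strand for CXCL3, chr4:73998718-73998817 on the minus strand for CXCL5, chr4:73836538-73836637 on the plus strand for CXCL6 and chr4:73740429-73740528 on the plus strand for CXCL8.

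Each of the 6 promoters held GGAATTTCC once, starting between 91 and 77 bases before the gene start. Of 35116 promoters of 300 bases (250 before the start and 50 from it), 0.965% held GGAANTTCC, which reads the same on both strands, and 0.461% held GGAATTTCC on either strand. A further G stood directly before these letters in 5 of the 6, and CXCL8 was the gene without it. Other motifs, searched on both strands, were each found in 1 of the 6 promoters or in none. With 6 promoters, such counts are too small to be told apart from the shares of all promoters. TGANTCA was found in CXCL8 alone, against 7.71% of all promoters, and the C/EBP letters TTGCNNAA in CXCL2 alone, against 10.5%. The letters TTGCAAAT in CXCL8, shortly before its NF-kappaB match, differ from TTGCNNAA in the last letter only. Looser matches were not searched, so CXCL8 is not shown to lack a C/EBP site. The TATA box letters TATAAA were found in CXCL8 alone, against 11.5% of all promoters. The nuclear factor I palindrome, TTGGC and GCCAA 5 bases apart (0.0285% of promoters), and the shorter site TTGGCA (12.5%) had no match in these 6 windows, and the motifs searched do not overlap one another in any of them. In global alignments the promoters of CXCL1 and CXCL3 were identical at 84.7% of 300 bases and those of CXCL5 and CXCL6 at 83.7%. CXCL8 stood farthest from the others, at 37.3% to 42.7%. A match describes letters in a window and is not a measured binding site.

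**Figure D1:**
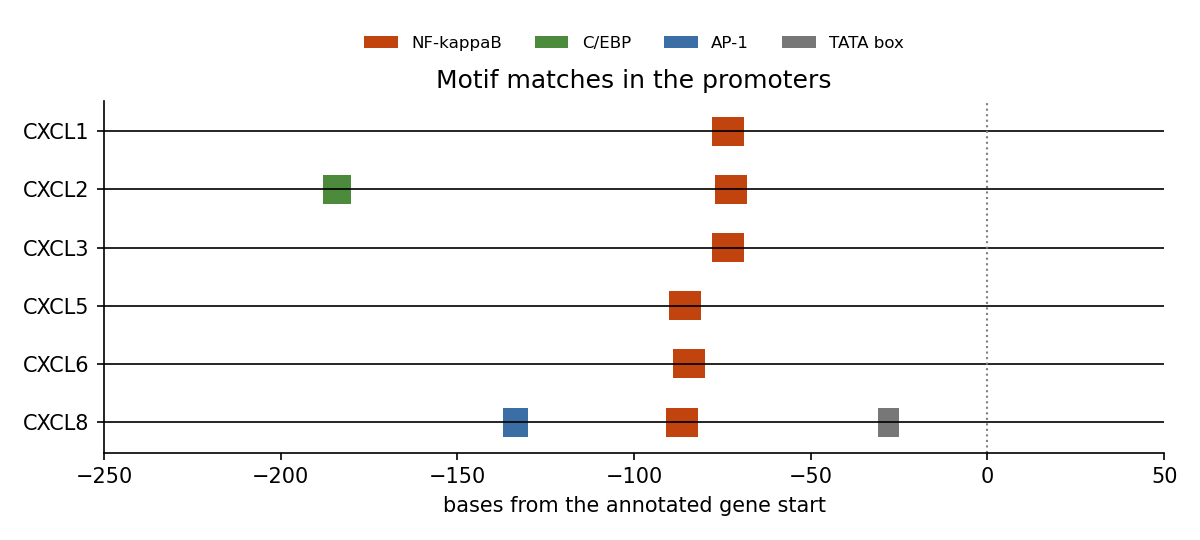
Matches of 4 motifs in the promoters of the 6 chemokine genes, by distance in bases from the annotated gene start (dotted line). The NF-kappaB letters stand between 91 and 69 bases before the start in every promoter, and AP-1, C/EBP and TATA box letters each appear in 1 promoter.

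Values are log2 expression values that the authors made with RMA, so a difference of 1 is a 2-fold change. Array medians ran from 4.80 to 4.85, and the median of all values, 4.82, serves here as a mark of the dim end of the scale, where RMA compresses differences. Correlations over all probe sets were 0.992 to 0.997 within the transfected group, 0.996 within the wild type group and 0.971 to 0.976 between the groups. The gene of the named factor, NFIC, read 8.22, 8.23 and 8.30 on transfected arrays and 8.40, 8.49 and 8.52 on wild type arrays with its brightest probe set, a difference of -0.22 (SE 0.08). Its other probe sets differed by -0.11 (SE 0.11), -0.51 (SE 0.16) and 0.22 (SE 0.17). No NFIC probe set, the brightest included, was called (limma adjusted p over all probe sets from 0.0536 to 0.568). A rise of NFIC was thus not seen on these arrays. Whether the plasmid's transcript holds the targets of these probe sets is unknown here, so they do not check the labels. Of 5 epithelial markers, KRT18 was bright (means of 11.62 in transfected and 12.55 in wild type arrays), while the E-cadherin gene CDH1 (3.44 and 3.42) and KRT19 (4.26 and 4.01) were below 4.82 in both groups. Of 12 leukocyte markers, 8 were below 4.82 in both groups, the pan-leukocyte gene PTPRC among them (3.86 in transfected and 3.65 in wild type arrays), and their summed log2 level was 52.30 to 53.90 on transfected and 52.56 to 53.37 on wild type arrays. In that list the monocyte receptor CD14 rose by 0.82 (limma adjusted p = 0.00947) and the integrin ITGAM fell by 1.21 (limma adjusted p = 0.00534), but read -0.11 (limma adjusted p = 0.718) where probe sets that may match other transcripts (names in _x_at or _s_at) were left out. The 4 endothelial markers gave no call, also at an unadjusted p under 0.05, with summed levels of 17.33 to 17.66 on transfected and 17.23 to 17.28 on wild type arrays.

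Among the 6 chemokines, 5 were higher and 1, CXCL6, was lower on the arrays labelled transfected. The members were chosen by name with the differences between these groups known, so their differences are given as descriptions without a test. The groups did not overlap on the brightest probe set of any of the 6 genes, nor on 10 of the 11 probe sets, 9 of them higher and 1 lower. Over all 54613 probe sets that was so for 34.9%, with 17.1% higher and 17.8% lower, and nothing is read from the members' count. Of the 11 probe sets, 9 had a mean above 4.82 in at least 1 group. The other 2, 230101_at of CXCL2 and 207852_at of CXCL5, were below it in both.

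CXCL5, a chemokine made mainly by epithelial and stromal cells, differed most. Its brightest probe set, 214974_x_at, read 9.96, 9.94 and 10.46 on transfected arrays, against 3.16, 3.40 and 3.13 on wild type arrays. The wild type values lie at the dim end of the scale and all 3 transfected values lie far above it, with a gap of 6.54 between the nearest arrays. The means were 10.12 ± 0.29 in transfected and 3.23 ± 0.15 in wild type arrays (SD, n = 3 each), a difference of 6.89 (SE 0.15). With the wild type level of this probe set raised to 4.82, its difference was 5.30, or 39.4-fold. A further probe set, 215101_s_at, read 7.62, 8.07 and 8.54 on transfected arrays, against 3.22, 3.30 and 3.22 on wild type arrays. It gave the same order of groups with a smaller difference of 4.83 (SE 0.20), or 9.56-fold by the same floor. The third, 207852_at, was dim in both groups, at 3.25, 3.46 and 3.74 on transfected and 2.78, 3.17 and 2.97 on wild type arrays, and differed by 0.51 (SE 0.15). The size for CXCL5 therefore rests on probe sets ending in _x_at or _s_at, suffixes that the array maker gives to probe sets that may also match other transcripts.

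CXCL1, CXCL2 and CXCL3, close relatives first known as the growth-regulated oncogenes, were all higher in transfected arrays, by 2.56 to 3.35 on the log2 scale. CXCL1 (204470_at) read 11.82, 11.86 and 11.98 on transfected arrays, against 8.28, 8.25 and 9.09 on wild type arrays. The transfected arrays had an SD of 0.08, while wild type replicate 3 stood above its 2 partners. The difference was 3.35 (SE 0.21; 10.2-fold), and 3.62 without that array. CXCL3 (207850_at) read 11.67, 11.55 and 11.95 on transfected arrays, against 8.64, 8.64 and 9.0 on wild type arrays, a difference of 2.96 (SE 0.14; 7.80-fold). Replicate 3 was again the highest array of each group.

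CXCL2 was read by 3 probe sets of unlike brightness. The brightest, 209774_x_at, read 13.16, 13.04 and 13.26 on transfected arrays, against 10.45, 10.44 and 10.88 on wild type arrays. The difference there was 2.56 (SE 0.13; 5.91-fold), with 2.16 between the nearest arrays. The dimmer 1569203_at read 5.58, 6.05 and 6.07 on transfected arrays, against 3.99, 4.96 and 5.34 on wild type arrays. Its groups lay 0.24 apart, with a wild type SD of 0.70, and differed by 1.14 (SE 0.32). On 230101_at the groups met at a shared value of 3.82, with 4.36, 3.92 and 3.82 on transfected and 3.82, 3.62 and 3.57 on wild type arrays. That difference was 0.36 (SE 0.15), at a level below 4.82 in both groups.

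CXCL8, the neutrophil chemokine that binds both receptors, was bright in both groups and higher in the transfected one. Its brightest probe set, 202859_x_at, read 13.50, 13.41 and 13.77 on transfected arrays, against 11.79, 11.81 and 12.08 on wild type arrays. The other, 211506_s_at, read 13.41, 13.30 and 13.46 on transfected arrays, against 10.30, 10.38 and 10.92 on wild type arrays. Both sets separated the groups, and they gave unlike sizes for the same message, 1.67 (SE 0.12; 3.17-fold) and 2.86 (SE 0.16; 7.24-fold). On the transfected arrays the sets stood near the top of the scale, whose highest value on any array was 14.62.

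CXCL6, the closest relative of CXCL5 and like CXCL8 a ligand of both receptors, went the other way. Its only probe set, 206336_at, read 4.74, 5.34 and 5.53 on transfected arrays, against 7.47, 7.36 and 8.04 on wild type arrays. All 3 transfected arrays were lower than every wild type array, with 1.83 between the nearest of them. The means were 5.20 ± 0.41 in transfected and 7.62 ± 0.36 in wild type arrays (SD, n = 3 each), a difference of -2.42 (SE 0.24), or 5.35-fold lower. Leaving out 1 array at a time gave -2.58 to -2.19. CXCL5 and CXCL6 thus differed in opposite directions. Their promoters were identical at 83.7% of positions and held the same NF-kappaB letters, 90 and 89 bases before the start. Whether the promoters bear on the differences was not tested.

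**Figure D2:**
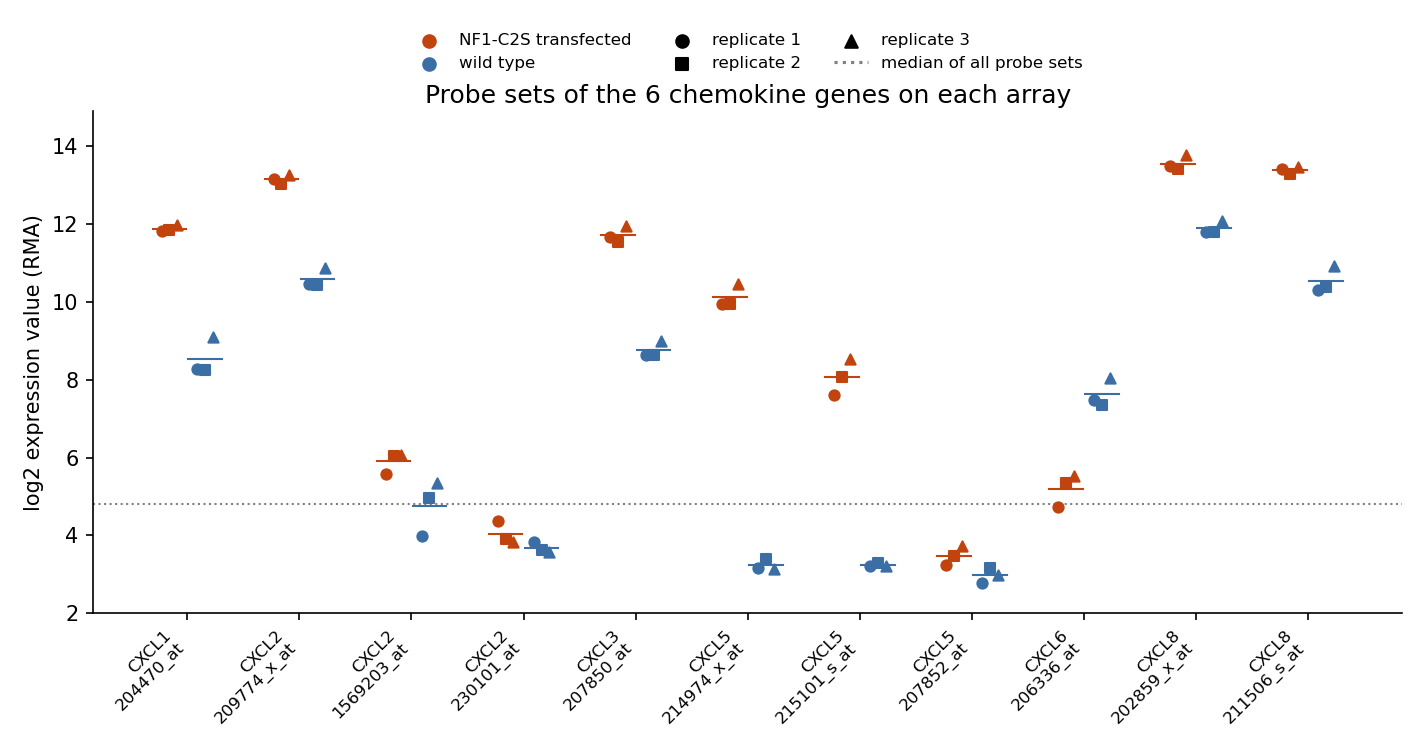
Log2 expression (RMA) of the 11 probe sets of the 6 chemokine genes on each array, with transfected arrays left of wild type arrays, marker shapes for replicates, short lines for group means and a dotted line at the median of all values, 4.82. CXCL6 is the gene whose transfected arrays, at 4.74 to 5.53, lie below its wild type arrays, at 7.36 to 8.04.

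**Figure D3:**
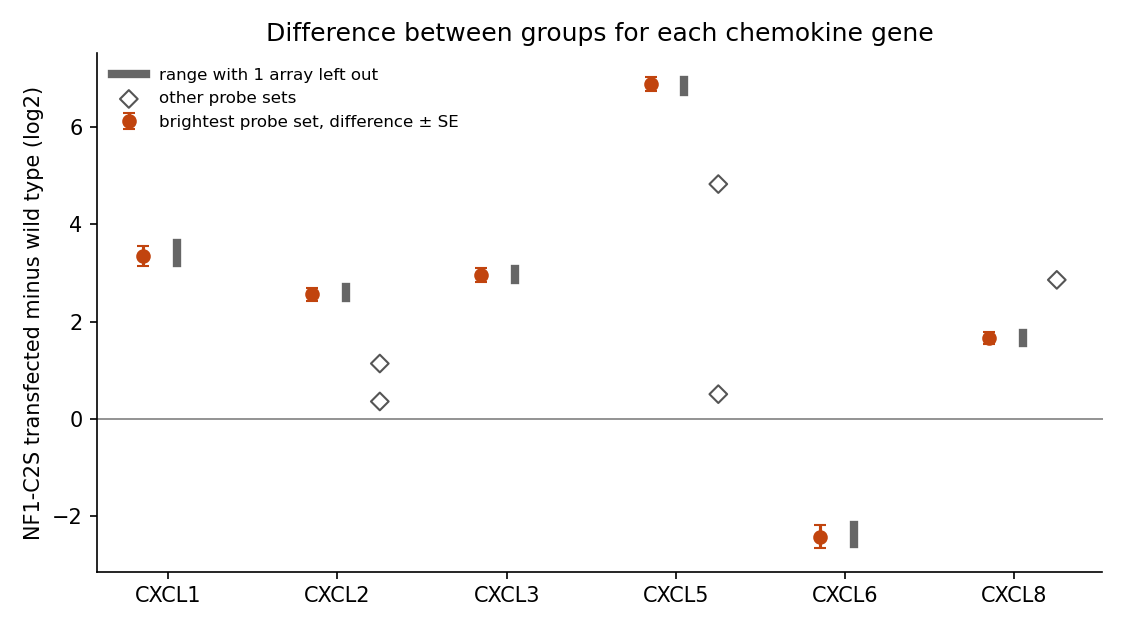
Difference between the group means (NF1-C2S transfected minus wild type, log2) of each gene's brightest probe set with its SE (circles), the range when any 1 array was left out (bars) and the gene's other probe sets (diamonds). Brightest probe sets run from -2.42 for CXCL6 to 6.89 for CXCL5, and the 3 CXCL5 probe sets spread from 0.51 to 6.89.

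Replicate 3 was the highest transfected array on 10 of the 11 probe sets and the highest wild type array on 7 of 11, against 31.9% and 31.8% of all probe sets. In the wild type group its excess over the mean of replicates 1 and 2 was 0.82 for CXCL1, 0.62 for CXCL6, 0.44 for CXCL2, 0.36 for CXCL3 and 0.28 for CXCL8 on their brightest probe sets. CXCL5 did not share it, at -0.15. The excess ran the same way for CXCL6 as for CXCL1, although the 2 genes differ in opposite directions between the groups. On that array 6354 values, those of CXCL1, CXCL6 and 202859_x_at of CXCL8 among them, carry more than 2 decimals. Those 6354 values and the remaining 48321 had the same median offset from the other wild type arrays, 0.00. The part of this array in the differences can be read from the values without it, which were 3.62 for CXCL1, 2.71 for CXCL2, 3.08 for CXCL3, 6.84 for CXCL5, -2.21 for CXCL6 and 1.76 for CXCL8.

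The receptors of these chemokines read near or below the median of all values. CXCR1, a receptor for CXCL8 and CXCL6, read 5.93, 5.83 and 5.74 on transfected arrays, against 5.63, 5.55 and 5.55 on wild type arrays. It rose by 0.26 (limma adjusted p = 0.0372 over 19775 genes, of which 31.9% were called), but missed the threshold over all probe sets (adjusted p = 0.0618). It also missed it without transfected replicate 1 or 2, or without wild type replicate 1, 2 or 3 (limma adjusted p from 0.0644 to 0.106). CXCR2, the receptor shared by all 6 ligands, read 3.72, 3.46 and 3.33 on transfected and 3.67, 3.48 and 3.44 on wild type arrays (limma adjusted p = 0.907). The decoy receptor ACKR1, which binds chemokines without signalling, averaged 4.23 in transfected and 4.15 in wild type arrays (limma adjusted p = 0.658). Both CXCR2 and ACKR1 were below 4.82 in each group.

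Platelet chemokines of the same cluster gave no call. PPBP, an ELR chemokine of platelets, averaged 3.18 in transfected and 3.12 in wild type arrays (limma adjusted p = 0.703), PF4 averaged 4.98 and 4.86 (adjusted p = 0.539) and PF4V1 2.76 and 2.80 (adjusted p = 0.895). None of the 3 passed at an unadjusted p under 0.05 either. Among 8 CXC chemokines without ELR, 3 fell, none rose and 5 were not called (37.5% called against 31.9% of all genes, median difference -0.08 against 0.00), with no rise at an unadjusted p under 0.05. CXCL14, a chemokine of epithelia, fell by 1.96 (SE 0.09; limma adjusted p = 8.29e-06) on its brightest probe set and by 2.71 on a further one, while the remaining one read 0.10. The transfected means of the first 2 were below 4.82, and with that floor the differences were -1.92 and -2.11. CXCL12, which calls cells through CXCR4, fell by 0.93 (adjusted p = 0.000421) and the membrane-bound CXCL16 by 0.52 (adjusted p = 0.000908). A further CXCL12 probe set averaged 3.84 in transfected and 6.87 in wild type arrays, a difference of -3.03, or -2.05 with the transfected level raised to 4.82. CXCL9, CXCL10 and CXCL11, the interferon-induced ligands of CXCR3, were below 4.82 in both groups, at means of 4.08, 3.99 and 3.09 in transfected and 3.81, 4.07 and 2.99 in wild type arrays.

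The genomic neighbourhood was uneven. Counted in gene order along chromosome 4, the run from CXCL8 to CXCL2 holds the 6 members and 4 other measured genes, PF4V1, PF4, PPBP and the pseudogene PPBPP2, none of which was called, also at an unadjusted p under 0.05. Of the 10 measured genes before the run 2 fell, and of the 10 after it 4 fell. No flanking gene rose, against 15.0% of all genes, also at an unadjusted p under 0.05, and 16.9% of all genes fell. Of the 24 measured genes within and beside the run that are not members, 9 had a probe set averaging above 4.82. Most were thus dim, and nothing is read from the absence of rises. The growth factor gene EREG (epiregulin, a ligand of the epidermal growth factor receptor) read 6.77, 6.61 and 7.03 on transfected arrays, against 10.74, 10.90 and 10.83 on wild type arrays. It fell by 4.02 (SE 0.11; 16.2-fold; limma adjusted p = 1.76e-06), in the direction opposite to CXCL2, from which it is separated among measured genes by MTHFD2L and LOC105377276. MTHFD2L, a mitochondrial folate enzyme and the gene next to CXCL2, read 7.60, 7.72 and 7.75 on transfected arrays, against 9.57, 9.57 and 9.60 on wild type arrays, and fell by 1.89 (adjusted p = 4.62e-06). LOC105377276 fell by 1.07 (adjusted p = 0.000795), and so did PARM1, an androgen-regulated mucin-like gene (adjusted p = 0.00608). On the other side COX18, a mitochondrial membrane insertase, fell by 1.15 (adjusted p = 1.97e-05) and the procollagen protease ADAMTS3 fell by 0.88 (adjusted p = 0.00193). Both ADAMTS3 (means of 3.35 in transfected and 4.23 in wild type arrays) and LOC105377276 (3.56 and 4.63) were below 4.82 in each group, so the sizes of their differences are uncertain. RASSF6, the gene next to CXCL8 on that side, read 3.35 in transfected and 3.41 in wild type arrays (adjusted p = 0.634).

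**Figure D4:**
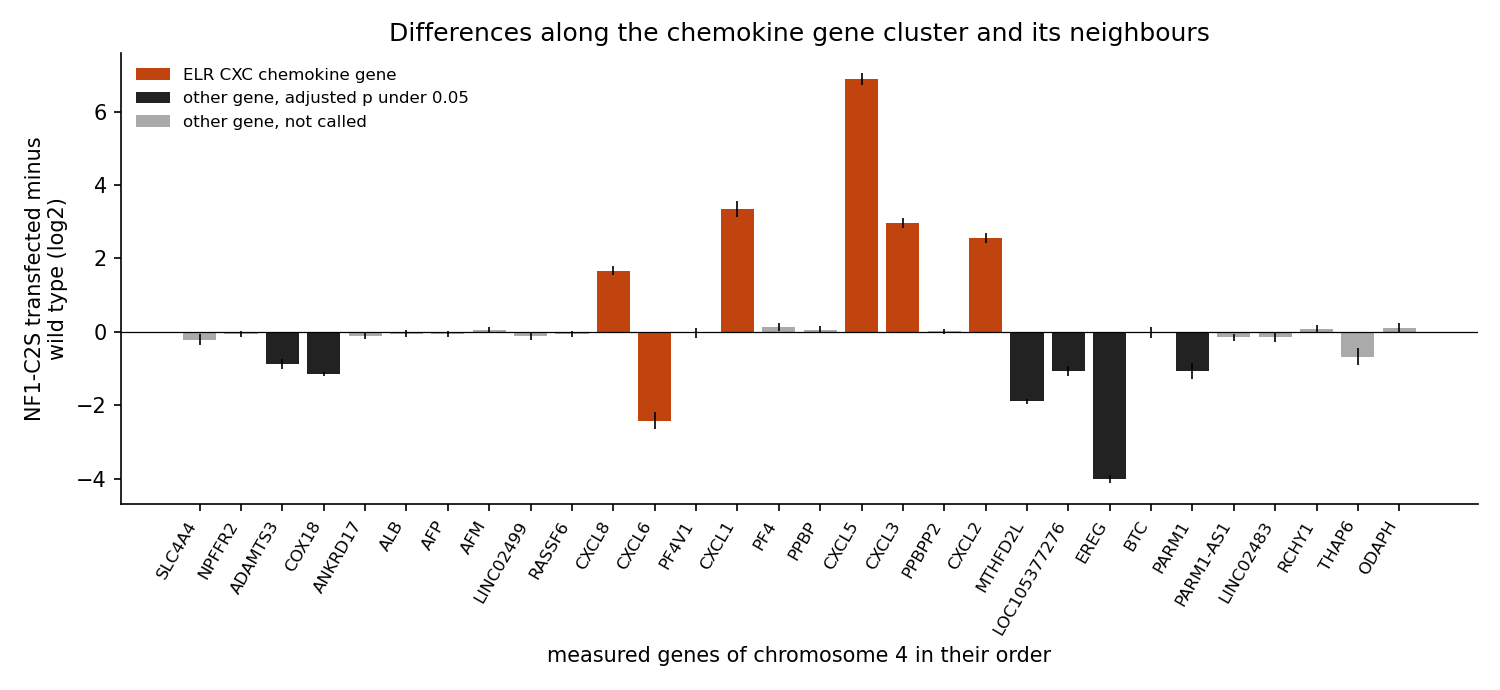
Difference between groups (NF1-C2S transfected minus wild type, log2, with SE) for the measured genes of chromosome 4 from 10 before CXCL8 to 10 after CXCL2, in gene order and not to genomic scale. The 5 higher chemokines (1.67 to 6.89) stand in 1 run with the lower CXCL6 (-2.42), and the called flanking genes, EREG at -4.02 the largest of them, were all lower.

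Interleukin-1, a main inducer of these chemokines, was higher itself, and whether it bears on their differences was not tested. IL1B read 14.11, 14.08 and 14.14 on transfected arrays, against 11.65, 11.66 and 11.87 on wild type arrays, and rose by 2.38 (SE 0.08; 5.22-fold; limma adjusted p = 3.94e-06). IL1A read 12.73, 12.78 and 12.76 on transfected arrays, against 11.56, 11.60 and 11.51 on wild type arrays, and rose by 1.20 (SE 0.07; adjusted p = 1.81e-05). The other inducers, receptors and adaptors went both ways: of 22 measured, these cytokines included, 8 rose, 7 fell and 7 were not called (68.2% called against 31.9% of all genes), with a median of 0.07. With only probe sets averaging above 4.82 kept, 16 of 18 were called, against 50.2% of 12837 genes. Of the receptors, IL1R1 rose by 1.00 (adjusted p = 0.0003) and the oncostatin M receptor OSMR rose by 1.12 (adjusted p = 4.7e-05), although a dimmer OSMR probe set read -0.66. The tumour necrosis factor receptor TNFRSF1A fell by 0.92 (adjusted p = 0.000175) and the double-stranded RNA receptor TLR3 by 1.07 (adjusted p = 0.00122). Within the interleukin-1 pathway the co-receptor IL1RAP fell by 0.59 (limma adjusted p = 0.00507) and the adaptor MYD88 by 0.58 (limma adjusted p = 0.000931). In the same pathway TRAF6 rose by 0.85 (limma adjusted p = 0.000468) and IRAK1 by 0.27 (limma adjusted p = 0.0176), while IRAK2 fell by 0.46 (limma adjusted p = 0.0361). The calls of IRAK1 and IRAK2 were lost when some single arrays were left out. TNF averaged 4.15 in transfected and 4.27 in wild type arrays and IL17A 3.30 and 3.20, all below 4.82.

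Of 15 measured NF-kappaB subunits, inhibitors, kinases and feedback genes, 7 rose, none fell and 8 were not called (46.7% called against 31.9% of all genes, median 0.17). All calls were rises, against 15.0% of all genes, and none fell at an unadjusted p under 0.05. All 15 genes read above 4.82 in both groups. With only probe sets above that level kept, 7 of the 15 were called, against 50.2% of 12837 genes, so their share of calls was no higher than that of bright genes. NFKBIZ, a nuclear cofactor of NF-kappaB, read 11.43, 11.42 and 11.34 on transfected arrays, against 8.60, 8.60 and 9.05 on wild type arrays, and rose by 2.65 (SE 0.13; 6.26-fold; limma adjusted p = 1.18e-05). Wild type replicate 3 was its highest wild type array, as for CXCL1, CXCL2, CXCL3, CXCL8 and the lower CXCL6, and on 31.8% of all probe sets. The brightest probe sets of CXCL5 and IL1A read lowest on that wild type array. TNIP1 and TNIP2, which restrain the pathway, rose by 1.33 (adjusted p = 4.05e-05) and 0.49 (adjusted p = 0.00334), and the subunit RELB by 0.97 (adjusted p = 0.000124). With the _x_at and _s_at sets left out, TNIP1 read 0.41 (limma adjusted p = 0.114). RELA, the usual partner in the active factor, averaged 9.34 in transfected and 9.26 in wild type arrays (adjusted p = 0.499), and the inhibitor NFKBIA 11.16 and 11.08 (adjusted p = 0.721). Among 12 AP-1 and C/EBP factors, 5 rose, 2 fell and 5 were not called (58.3% called against 31.9% of all genes, median 0.30). With only probe sets averaging above 4.82 kept, 8 of 11 were called, against 50.2% of 12837 genes. CEBPD rose by 1.12 (adjusted p = 0.0059), ATF3 by 1.09 (adjusted p = 0.00476) and FOS by 1.06 (adjusted p = 0.000256), while JUND fell by 0.43 (adjusted p = 0.0141) but read -0.23 (adjusted p = 0.0907) as the mean of its probe sets. CEBPD also had its highest wild type value on replicate 3, at 10.29 beside 9.45 and 9.44.

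Partners in neutrophil production and recruitment were measured for 6 genes, of which 4 rose, 1 fell and 1 was not called (83.3% called against 31.9% of all genes, median 0.99). With only probe sets averaging above 4.82 kept, 5 of 5 were called, against 50.2% of 12837 genes. This list was chosen with earlier results of these data known, so nothing is read from its count. CSF3, the growth factor that drives neutrophil output from bone marrow, read 11.92, 11.64 and 11.82 on transfected arrays, against 5.42, 5.25 and 5.36 on wild type arrays, and rose by 6.45 (SE 0.09; 87.4-fold; limma adjusted p = 2.98e-07). The iron-binding neutrophil protein LCN2 read 9.26, 8.83 and 9.77 on transfected arrays, against 5.88, 5.30 and 6.32 on wild type arrays, and rose by 3.45 (adjusted p = 0.000128). ICAM1, the surface ligand that neutrophil integrins grip, read 9.67, 9.54 and 9.60 on transfected arrays, against 8.10, 8.19 and 8.12 on wild type arrays, and rose by 1.47 (adjusted p = 1.13e-05). S100A8 fell by 1.29 (adjusted p = 0.0161), although a further probe set read -0.15 (adjusted p = 0.398 where probe sets ending in _x_at or _s_at were left out). Without transfected replicate 2 its limma adjusted p was 0.0502. S100A9 went the other way and rose by 0.50 (limma adjusted p = 0.0349). That call was lost without transfected replicate 1 or 3 or wild type replicate 1 or 2 (limma adjusted p from 0.0697 to 0.108).

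**Figure D5:**
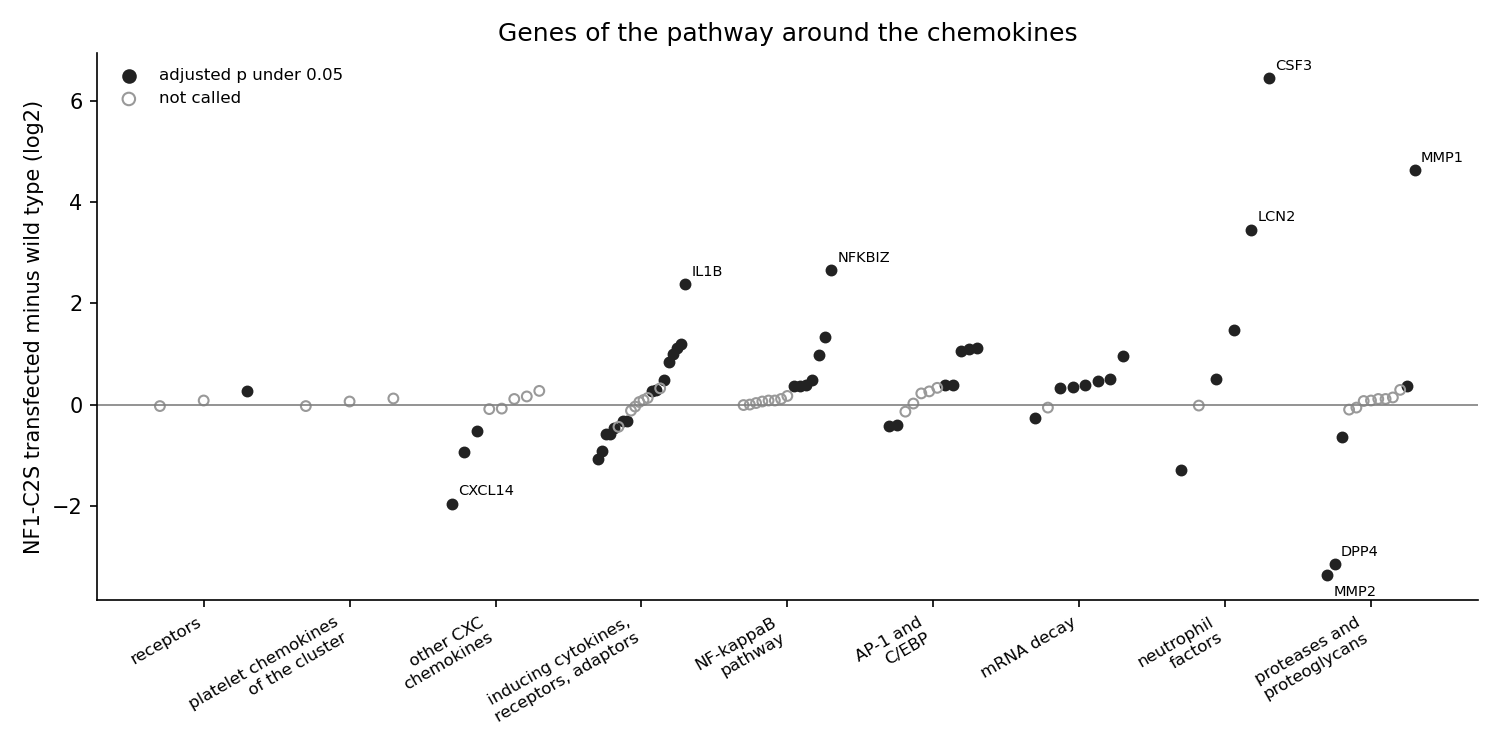
Difference between groups (NF1-C2S transfected minus wild type, log2) for the measured genes of 9 lists around the chemokines, each point 1 gene on its brightest probe set. Filled points passed the threshold, and CSF3 at 6.45, MMP1 at 4.63, LCN2 at 3.45, NFKBIZ at 2.65 and IL1B at 2.38 lie highest, with MMP2 at -3.37 and DPP4 at -3.15 lowest.

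Genes whose profile over the 6 arrays was nearest to each member were found by Euclidean distance between log2 values centred on each gene's mean, so that size and direction count and level does not. Nearest to CXCL5 were CSF3 (distance 0.76), the interferon-induced BST2 (0.80) and the cytokine IL24 (1.28). For CXCL2 they were KCTD1 (0.18), NFKBIZ (0.24) and the cytokine LIF (0.29). CXCL3 had CIART (0.20), the myosin light chain MYL9 (0.24) and LIF (0.39) nearest, and CXCL1 had THBD (0.51), cyclin D2, CCND2 (0.52), and CIART (0.59). CXCL8 had MYRF (0.16), BNIP3L (0.19) and PHACTR1 (0.19), and CXCL6 had CCN4 (0.34), AKR1C1 (0.46) and the insulin receptor substrate IRS1 (0.47). Among the members themselves the smallest distance was 0.52, between CXCL2 and CXCL3, and the largest 11.43, between CXCL5 and CXCL6. With 6 arrays in 2 groups, these distances mostly reflect the size of the difference between the groups.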

How the data were processed

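RNA of 6 samples was measured on Affymetrix arrays. The authors deposited 1 table of log2 values, made with RMA per the submitters' processing notes (background correction, normalization between arrays, 1 value per probe set); its version is not given. Arrays have no read depth, and their number limits the precision. Groups and replicate numbers came from the labels, which name no separate cultures. P-values thus rest on sample-to-sample spread that may be technical.

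Of 54675 probe sets, 62 controls were left out. The platform annotation gave 41091 of the rest 1 gene, 1801 several and 11721 none, and 41037 matched a GRCh38.p14 gene table by identifier. That table gave names and gene order. A gene was represented by its brightest 1-gene probe set (mean over the 6 arrays). List members without one were not analysed here. Groups were compared with limma 3.58.1 in R 4.3.3 (empirical Bayes, two-sided) and Benjamini-Hochberg adjustment over all 19775 genes, or over all probe sets for single ones, at 0.05. The script was tested on simulated data. The members and lists were chosen with earlier results of these data known. The lists' counts and the p-values of their genes are therefore descriptions and not independent support. Named are all members, receptors and cluster chemokines, CSF3, IL1A, IL1B, NFKBIZ and ICAM1, up to 4 called genes with the largest change per list, called flanking genes and the 3 nearest genes per member; other names were chosen after their values were seen.

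Promoters were RefSeq's, aligned with Biopython 1.88 (match 1, mismatch 0, gap -2 and -0.5). Same-numbered arrays of the groups had correlated deviations from their group means, at 0.398, 0.238 and 0.140 for replicates 1, 2 and 3, all over 0.1. The highest between unlike numbers was 0.142, for transfected replicate 3 with wild type replicate 2. The numbers may thus pair the arrays, but this comes from the data, not from a stated batch. The main fits, with their SE and p-values, left the pairing out. It entered only as the replicate block, 1 of the alternatives. The alternatives were 3 normalizations, array weights, a variance trend with robust moderation, the replicate block, a filter on dim probe sets, other choices of probe set per gene, and leaving out each array.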

Additional observations from a re-analysis of the deposited data

How the results depend on the processing

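No member changed direction under any of the 15 alternatives that gave it a value, and CXCL8 has no probe set left without those ending in _x_at or _s_at. With 1 array left out, the differences were 3.20 to 3.62 for CXCL1, 2.49 to 2.71 for CXCL2, 2.85 to 3.08 for CXCL3, 6.72 to 6.98 for CXCL5, -2.58 to -2.19 for CXCL6 and 1.56 to 1.76 for CXCL8. The choice of probe set moved sizes more: the mean over a gene's probe sets gave 1.35 for CXCL2, 4.08 for CXCL5 and 2.26 for CXCL8. Without the _x_at and _s_at probe sets, CXCL2 read 1.14 and CXCL5 0.51, 5 of 6 member probe sets did not overlap, and 7153 of 39114 probe sets were called in place of 12142 of 54613. That setting also left 4 of 7 mRNA decay genes, 3 of 5 neutrophil partners and 0 of 2 receptors called. With 1 array left out, 3 to 5 of the 8 mRNA decay genes and 0 to 1 of the 3 receptors were called, and trend with robust moderation called 0 receptors. With the replicate block, 6665 genes were called in place of 6300, the members' differences were as without it (-2.42 for CXCL6), and FOSL1 was the only called list gene to lose its call (0.38; adjusted p = 0.0574). Without the _x_at and _s_at sets, CXCL14 read 0.10 (adjusted p = 0.636) and TNIP1 0.41 (adjusted p = 0.114). The cause of these changes was not tested beyond the change of probe set or the loss of an array.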

Other observations

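Enzymes that can trim or release CXC chemokines, and proteoglycans that hold them at the cell surface, did not move as one. Of 13 measured, 2 rose, 3 fell and 8 were not called (38.5% called against 31.9% of all genes, median 0.08 against 0.00). The collagenase MMP1 averaged 11.39 in transfected and 6.76 in wild type arrays, a rise of 4.63 (SE 0.27; limma adjusted p = 2.54e-05). DPP4, a surface peptidase that clips the ends of chemokines, was lower on each of its 3 probe sets, whose transfected means were below 4.82, the median of all values. With those means raised to 4.82 the differences were -3.08, -2.85 and -2.34. The gelatinase MMP2 fell by 3.37 (adjusted p = 4.05e-05), with its 2 dim probe sets both at 0.02. MMP9, which in human cells trims CXCL8, averaged 5.28 in transfected and 4.99 in wild type arrays (adjusted p = 0.229), and the syndecans SDC1 and SDC4 differed by 0.08 and 0.14 (adjusted p = 0.471 and 0.389).

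Messages of these chemokines are short-lived and are cleared through AU-rich elements. Of 8 measured genes that act on such messages, 6 rose, 1 fell and 1 was not called (87.5% called against 31.9% of all genes, median 0.36). With only probe sets averaging above 4.82 kept, 7 of 8 were called, against 50.2% of 12837 genes. The count of 7 calls became 3 without transfected replicate 2 or without transfected replicate 3, and to 4 without wild type replicate 1. The decay factor ZFP36L1 rose by 0.95 (limma adjusted p = 0.000173; 0.062 without _x_at and _s_at probe sets). Its relative ZFP36, tristetraprolin, rose by 0.50 (adjusted p = 0.0205, and 0.0656 to 0.0731 when transfected replicate 2 or 3 or wild type replicate 1 or 2 was left out). The kinase MAPKAPK2, which restrains tristetraprolin, rose by 0.46 (adjusted p = 0.00296), and KHSRP rose by 0.38 (adjusted p = 0.00916; 0.0595 as the mean of its probe sets). ELAVL1, which stabilizes such messages, averaged 10.75 in transfected and 10.81 in wild type arrays (adjusted p = 0.615).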
